A study of Mus musculus with 10 samples.

Results

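The 41 genes described here encode histone acetyltransferases, subunits of the NCoR, Sin3, CoREST and NuRD corepressor complexes, Polycomb proteins and bromodomain readers. They were listed by name and matched by gene symbol in a table of 45706 mouse genes, in which all 41 were found. The 9 acetyltransferases, 22 corepressor subunits (4 of NCoR, 4 of Sin3, 3 of CoREST and 11 of NuRD), 8 Polycomb genes and 2 bromodomain readers all passed the filter on low values, 1 CPM (a gene's reads per 1000000 reads of its library) or more in 5 or more of the 10 libraries, as did 12350 genes in all.

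The RNA came from mouse left ventricle. In TAC, transverse aortic constriction, the aorta is narrowed so that the ventricle pumps against a raised pressure. One group of 5 samples is labelled TAC osimertinib and the other, also of 5, TAC placebo, with its treatment given as vehicle. Osimertinib is an inhibitor of mutant epidermal growth factor receptor used in lung cancer, and the series was made to study its toxicity to the heart. Both groups had the constriction, and no group without it was analysed here, so the comparison is between drug and placebo in pressure-loaded hearts. No source used here gives the strain, age, sex or dose, and the labels describe the material as all heart cells without saying whether each sample is a separate mouse. P-values therefore measure the spread between these samples, which may in part be technical. In bulk tissue, fewer cells of a type and less RNA per cell cannot be told apart.

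Acetyltransferases place acetyl groups on histone tails, which loosens chromatin and is read by bromodomain proteins that bring in the transcription machinery. The NCoR, Sin3, CoREST and NuRD complexes work in the other direction, since each carries a histone deacetylase, and Polycomb complexes keep genes silent by methylating histone H3 and ubiquitinating histone H2A. In the heart the p300 and CBP acetyltransferases are known as coactivators of hypertrophic gene expression, and the class I deacetylases and Ezh2 as regulators of cardiac growth and of the fetal gene programme.

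The deposited CPM carry no factor between libraries, and placebo library 5 stood apart in them. Mitochondrially encoded transcripts took 63.4% of its reads, against 31.7% to 45.2% in osimertinib libraries and 38.1% to 48.0% in the other placebo libraries. In the deposited CPM 40 of the 41 genes had their lowest value in that library, as did 87.9% of all genes tested, and 29 of the 41 (70.7%) had their highest in placebo library 2, against 44.0% of all genes tested. Results are therefore given on both scales, deposited CPM and CPM divided by a factor for each library (rescaled CPM; the median ratio to the geometric mean library), which was 0.455 for placebo library 5 and 0.926 to 1.34 for the other 9. The median log2 fold change of all genes tested, osimertinib over placebo, was 0.27 in deposited CPM and 0.01 after rescaling. Depth lay between 15863265 and 21309296 reads, and the lowest value of any of the 41 genes in any library rested on 33 reads.

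Rbbp7 and Sap30 rose with osimertinib in the deposited CPM, and after rescaling Kat2b, Tbl1xr1, Sap30 and Rbbp7 were higher and Kat2a, Kat8 and Chd4 lower. The largest rise after rescaling was in Rbbp7, a histone chaperone, at 0.73 on the log2 scale, and the largest fall was in Kat2a, an acetyltransferase, at -0.65. None of the 3 CoREST, 8 Polycomb and 2 bromodomain genes passed limma's test on either scale, and 1 of these 13, Ezh2, had an unadjusted p under 0.05 after rescaling, as did 38.3% of all genes tested. The test was limma with Benjamini-Hochberg adjustment over all 12350 genes and a call at an adjusted p under 0.05.

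In the deposited CPM 2 of 41 genes were called (4.88%), against a background of 6.74% of all genes tested. Both were higher, a direction that held 6.62% of all genes tested. After rescaling 7 of 41 were called (17.1%), against a background of 20.8%. Of these 4 were higher, beside 10.4% of all genes, and 3 were lower, beside 10.5%. At these shares the 41 genes were called no more often than genes in general. Over the 41 genes the log2 fold change had a median of 0.21 in deposited CPM, beside 0.27 for all genes, and -0.07 after rescaling, beside 0.01. After rescaling 28 of the 41 fold changes were below 0 and 13 above, while in deposited CPM 34 were above 0 and 7 below. Of all 12350 genes tested, 6038 were below 0 after rescaling and 9419 were above 0 in deposited CPM. The deposited changes ran from -0.37 for Kat2a to 1.01 for Rbbp7.

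**Figure D1:**
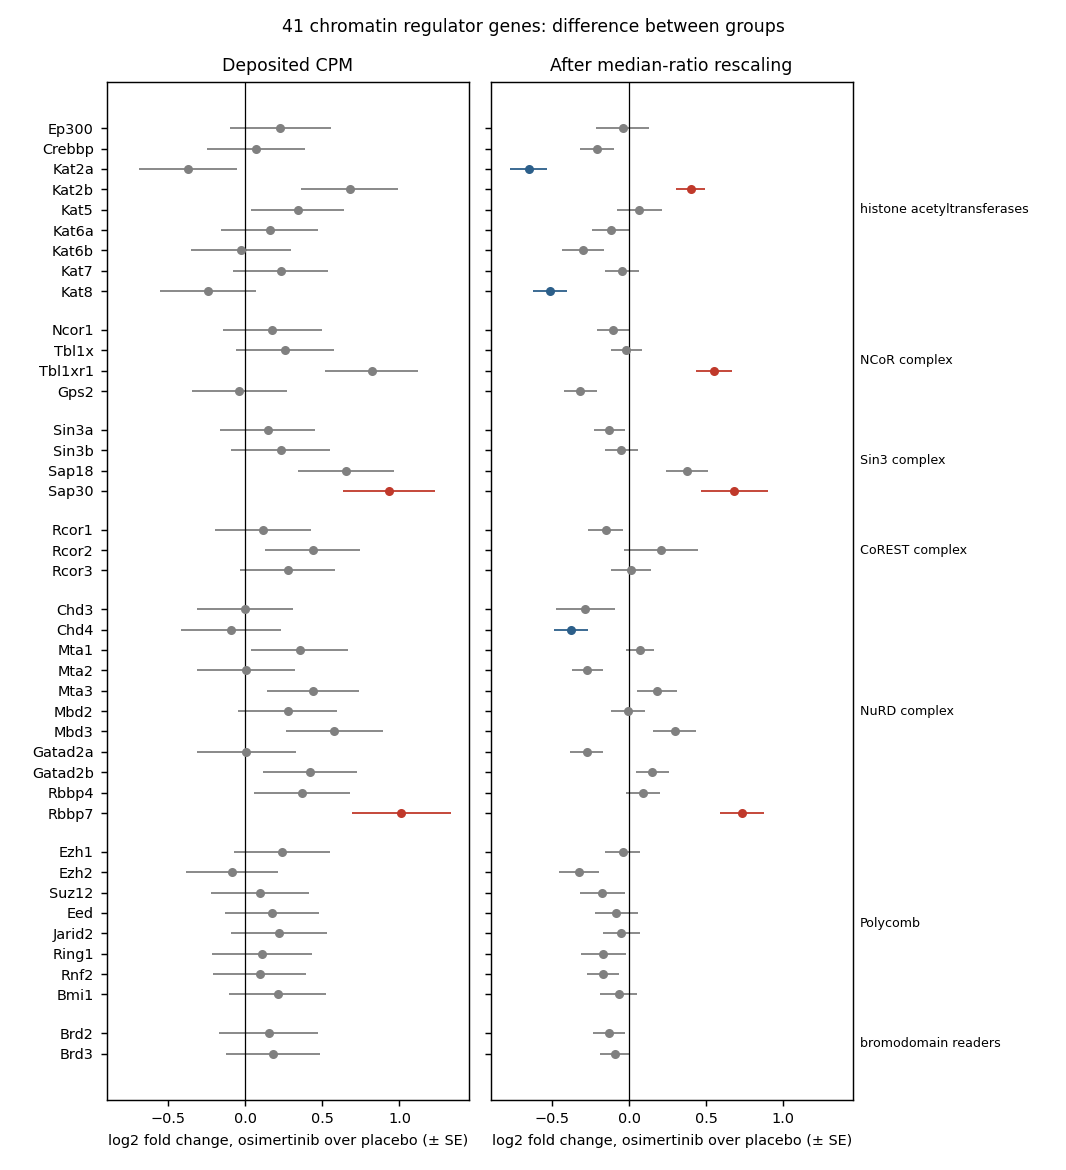
Log2 fold change of each of the 41 genes, osimertinib over placebo, with its standard error, grouped by role, in deposited CPM (left) and after rescaling (right). Red marks genes called higher, blue genes called lower and grey genes that did not pass. The standard errors are wider in the deposited CPM (median 0.31) than after rescaling (median 0.11), and Kat2a lies farthest to the left on the right-hand side, at -0.65.

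The groups did not overlap for 9 of the 41 genes after rescaling. Kat2b, Tbl1xr1 and Rbbp7 were higher in every osimertinib library than in any placebo library, a pattern that 5.71% of all genes showed. Kat2a, Kat8, Gps2, Chd4, Mta2 and Ezh2 were lower in every osimertinib library than in any placebo library, as were 6.82% of all genes. In the deposited CPM only Tbl1xr1 had groups that did not overlap, on the higher side, as did 5.33% of all genes. Summed over the 41 genes, the rescaled level ran from 1006 to 1026 CPM in osimertinib libraries and from 1029 to 1095 CPM in placebo libraries. Single genes weigh on this sum in both directions. Mean rescaled levels in osimertinib and placebo libraries were 94.9 and 124 CPM for Chd4, 33.0 and 51.7 for Kat2a and 46.3 and 27.3 for Rbbp7. In deposited CPM the sum overlapped between the groups, at 986 to 1238 in osimertinib libraries (mean 1130) and 498 to 1456 in placebo libraries (mean 1028).

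Kat2a and Kat2b are paralogs that take the same place as the acetyltransferase subunit of the SAGA and ATAC coactivator complexes, which acetylate histone H3 at promoters. They differed in opposite directions. Kat2a (chr11:100704746-100712465, minus strand; GRCm38, as are all gene positions here) had 35.8, 30.8, 27.4, 41.2 and 29.7 rescaled CPM in osimertinib libraries 1 to 5, against 47.3, 52.8, 50.4, 54.4 and 53.5 in placebo libraries 1 to 5. Every osimertinib library was below every placebo library, and the log2 fold change was -0.65 ± 0.12 (limma adjusted p = 0.0121). In deposited CPM Kat2a ran from 30.5 to 48.9 in osimertinib libraries and 24.3 to 70.98 in placebo libraries, and the change of -0.37 ± 0.32 did not pass (limma adjusted p = 0.542).

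Kat2b (chr17:53566861-53672720, plus strand) had 26.8, 32.8, 33.1, 32.9 and 33.2 rescaled CPM in osimertinib libraries 1 to 5, against 22.5, 25.5, 23.5, 24.3 and 23.9 in placebo libraries 1 to 5. The osimertinib libraries were all above the placebo libraries, and 4 of them lay within 1 CPM of each other while library 1 was lower. Its rescaled log2 fold change was 0.40 ± 0.09 (limma adjusted p = 0.0194), and in deposited CPM it was 0.68 ± 0.32 (limma adjusted p = 0.192). Without osimertinib library 3 the rescaled adjusted p was 0.0593 and without osimertinib library 5 it was 0.0532, so the call was lost. The pseudogene Kat2b-ps holds 14.6% of the 31-base words of Kat2b transcripts, so their reads could be split, and it was listed at 0 in every library.

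The ratio of one paralog to the other within a library does not depend on any scaling between libraries. The log2 ratio of Kat2b to Kat2a CPM was -0.42, 0.09, 0.27, -0.33 and 0.16 in osimertinib libraries 1 to 5, against -1.07, -1.05, -1.10, -1.16 and -1.17 in placebo libraries 1 to 5. The 5 placebo libraries lay within 0.12 of each other, and the osimertinib libraries, which spread more widely, were all above them. The mean log2 ratio was -0.04 ± 0.31 in osimertinib libraries and -1.11 ± 0.05 in placebo libraries (SD, n = 5 each), a difference of 1.07 (exact two-sided permutation test over all assignments of libraries to groups, p = 0.00794, adjusted p = 0.0238 over 15 pairs). That is the smallest p this design allows. Per kilobase of exon, the rescaled level of Kat2a was 9.48 ± 1.59 in osimertinib libraries and 14.8 ± 0.825 in placebo libraries, and that of Kat2b was 6.53 ± 0.569 in osimertinib libraries and 4.92 ± 0.229 in placebo libraries (SD, n = 5 each).

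The promoters of the pair are shown because the genes moved apart, so that their starts can be set side by side. The bases are RefSeq's upstream sequence (GRCm38.p6), up to 250 bases before the annotated start, 5′ to 3′ on each gene's strand, trimmed where the window met an annotated exon. Capitals would mark a match to 1 of 8 promoter motifs, and neither printed stretch holds one, although the full Kat2b window, which runs past the start of the annotated gene, holds a CCAAT box beyond the printed bases. The Kat2a stretch is chr11:100712468-100712717 on the minus strand and the Kat2b stretch chr17:53566721-53566860 on the plus strand.
Kat2a: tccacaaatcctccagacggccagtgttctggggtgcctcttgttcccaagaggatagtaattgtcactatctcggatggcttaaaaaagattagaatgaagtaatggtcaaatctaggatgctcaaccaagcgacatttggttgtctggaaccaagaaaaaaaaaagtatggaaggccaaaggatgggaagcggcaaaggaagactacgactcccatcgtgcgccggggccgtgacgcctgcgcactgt
Kat2b: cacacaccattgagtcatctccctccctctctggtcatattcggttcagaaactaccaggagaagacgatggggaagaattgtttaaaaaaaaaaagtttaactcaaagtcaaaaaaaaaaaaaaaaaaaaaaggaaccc
The Kat2a stretch has 11 CpG sites in 250 bases. The Kat2b stretch, the part of its window that lies before the first annotated exon, has 2 in 140 bases.

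Kat8, the MOF acetyltransferase of the MSL and NSL complexes, which acetylates histone H4, was the other acetyltransferase that fell. Kat8 (chr7:127912516-127925837, plus strand) had 10.2, 10.9, 9.35, 10.8 and 11.2 rescaled CPM in osimertinib libraries 1 to 5, against 13.7, 16.8, 17.3, 15.7 and 12.9 in placebo libraries 1 to 5. The groups did not overlap, and within the placebo group libraries 1 and 5 were the lowest. The rescaled log2 fold change was -0.51 ± 0.11 (limma adjusted p = 0.0156), and the call was kept in all 10 fits that left out 1 library. In deposited CPM Kat8 ran from 9.99 to 13.3 in osimertinib libraries and 5.87 to 22.6 in placebo libraries, with a change of -0.24 ± 0.31 that did not pass (limma adjusted p = 0.708). Of the 31-base words of Kat8 transcripts, 9.06% occur in those of other genes. Its exons overlap those of Prss8 on the opposite strand.

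Ep300 and Crebbp encode p300 and CBP, coactivators that many transcription factors recruit. Ep300 had 17.04, 21.03, 17.4, 17.9 and 14.2 rescaled CPM in osimertinib libraries 1 to 5, against 21.9, 21.3, 18.3, 19.1 and 11.3 in placebo libraries 1 to 5. Its lowest library was placebo library 5 and the groups overlapped. Its log2 fold change was -0.04 ± 0.17 after rescaling and 0.23 ± 0.33 in deposited CPM (limma adjusted p = 0.873 and 0.749). Crebbp had 17.9, 20.6, 19.99, 24.2 and 20.9 rescaled CPM in osimertinib libraries 1 to 5, against 23.8, 27.95, 23.7, 24.1 and 20.4 in placebo libraries 1 to 5. The groups overlapped here too, and the log2 fold change was -0.21 ± 0.11 after rescaling and 0.07 ± 0.32 in deposited CPM (limma adjusted p = 0.186 and 0.93). For both genes the sign of the fold change turned with the scaling, and the ratio of Ep300 to Crebbp within a library differed by 0.17 on the log2 scale (exact permutation p = 0.357).

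The remaining acetyltransferases did not pass on either scale. Kat5, the Tip60 enzyme of the NuA4 complex, had a rescaled log2 fold change of 0.07 ± 0.15, Kat6a of -0.12 ± 0.12 and Kat7, the HBO1 enzyme, of -0.05 ± 0.11. Kat6b, paralog of Kat6a and like it a partner of BRPF scaffolds, ran from 13.8 to 18.8 in osimertinib libraries and 14.97 to 23.3 in placebo libraries in rescaled CPM, a change of -0.30 ± 0.14 (limma adjusted p = 0.127). It was called only in the fit without placebo library 5. In all, limma called 1 of 9 acetyltransferases higher and 2 lower after rescaling, beside 10.4% and 10.5% of all genes tested. In the deposited CPM it called 0 of 9, beside 6.74% of all genes, and 1 of the 9, Kat2b, had an unadjusted p under 0.05 (0.0354), as did 21.6% of all genes.

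**Figure D2:**
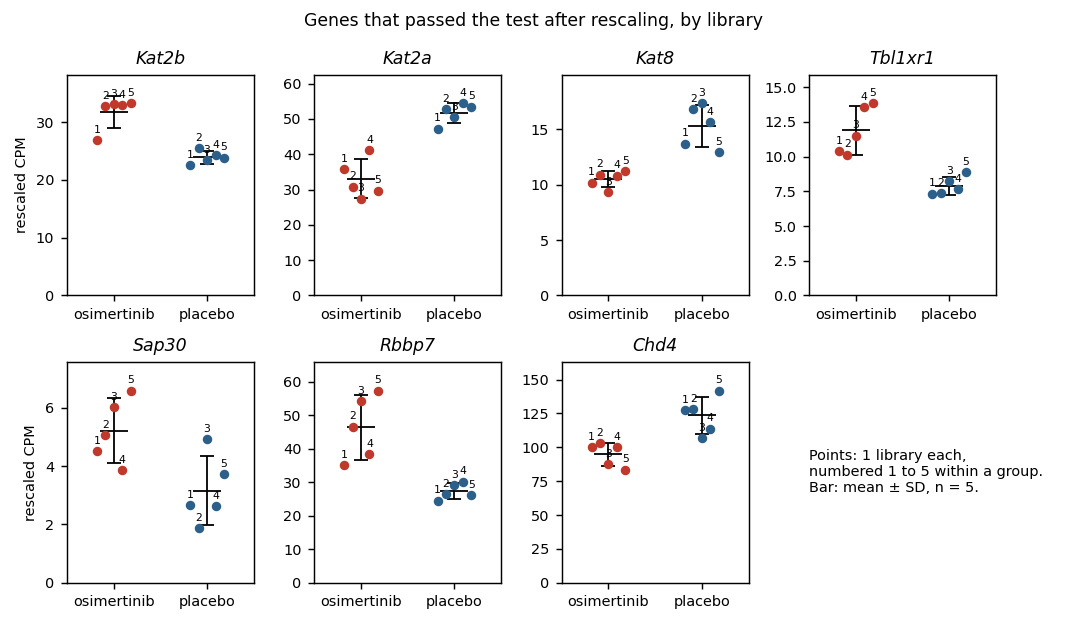
Rescaled CPM of the 7 genes that passed the test after rescaling, by library. Each point is 1 library with its number, red for osimertinib and blue for placebo, and the bar gives the mean with its SD (n = 5). The groups do not overlap except for Sap30, where placebo library 3, at 4.92 CPM, lies among the osimertinib libraries.

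NCoR is the corepressor that unliganded nuclear receptors recruit, and it holds Hdac3 through its scaffold together with the WD40 proteins Tbl1x and Tbl1xr1 and with Gps2. Tbl1xr1, which serves in the exchange of corepressors for coactivators, was the one NCoR gene that rose. Tbl1xr1 (chr3:22076652-22216594, plus strand) had 10.4, 10.1, 11.5, 13.6 and 13.8 rescaled CPM in osimertinib libraries 1 to 5, against 7.34, 7.36, 8.26, 7.67 and 8.88 in placebo libraries 1 to 5. All osimertinib libraries were above all placebo libraries, with osimertinib libraries 4 and 5 the highest. The log2 fold change was 0.55 ± 0.12 after rescaling (limma adjusted p = 0.0157), and the call was kept in all 10 fits that left out 1 library. In deposited CPM Tbl1xr1 had 10.2, 12.4, 13.3, 16.1 and 14.2 deposited CPM in osimertinib libraries 1 to 5, against 7.75, 9.897, 8.62, 7.099 and 4.04 in placebo libraries 1 to 5. These groups did not overlap either, but the change of 0.82 ± 0.30 did not pass (limma adjusted p = 0.0819), while it passed without placebo library 2 (0.0398) or placebo library 5 (0.0448), with array weights (0.00926) and with the replicate block (0.0473).

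Tbl1x, the X-linked paralog that shares the place of Tbl1xr1 in the complex, ran from 23.02 to 29.4 in osimertinib libraries and 24.4 to 28.7 in placebo libraries in rescaled CPM, a change of -0.02 ± 0.10 (limma adjusted p = 0.905). The log2 ratio of Tbl1x to Tbl1xr1 was 1.43, 1.44, 1.04, 1.12 and 0.73 in osimertinib libraries 1 to 5, against 1.94, 1.96, 1.65, 1.76 and 1.46 in placebo libraries 1 to 5. It was lower in every osimertinib library, by 0.60 on average (exact permutation p = 0.00794, adjusted p = 0.0238). Per kilobase of exon, the rescaled level of Tbl1x was 3.73 ± 0.395 in osimertinib libraries and 3.77 ± 0.251 in placebo libraries and that of Tbl1xr1 1.33 ± 0.196 in osimertinib libraries and 0.888 ± 0.0742 in placebo libraries (SD, n = 5 each), so Tbl1x was the higher of the pair in both groups.

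The scaffold Ncor1 had 34.8, 37.95, 32.7, 33.3 and 31.6 rescaled CPM in osimertinib libraries 1 to 5, against 40.3, 40.5, 31.8, 34.02 and 37.3 in placebo libraries 1 to 5. Placebo libraries 1 and 2 were the highest and the groups overlapped. Its log2 fold change was -0.11 ± 0.10 after rescaling and 0.18 ± 0.32 in deposited CPM, and neither passed (limma adjusted p = 0.476 and 0.805). Gps2, a subunit that binds Ncor1 and Tbl1x, ran from 15.5 to 20.98 in osimertinib libraries and 21.8 to 26.8 in placebo libraries without overlap, and its rescaled change of -0.32 ± 0.11 missed the threshold (limma adjusted p = 0.0535). Gps2 passed without osimertinib library 1, with a filter on a mean of at least 5 CPM, with the atrial covariate described with the cell type markers and under quantile normalization.

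Sin3 complexes pair the scaffolds Sin3a or Sin3b with Hdac1 or Hdac2, and Sap18 and Sap30 are associated subunits, of which Sap30 bridges the scaffold to the deacetylase. Sap30 (chr8:57482707-57487860, minus strand) was called higher on both scales, although its value rested on as few as 36 reads in 1 library. It had 4.53, 5.07, 6.04, 3.86 and 6.59 rescaled CPM in osimertinib libraries 1 to 5, against 2.66, 1.88, 4.92, 2.62 and 3.72 in placebo libraries 1 to 5. Placebo library 3 was above osimertinib libraries 1 and 4, and the groups were otherwise apart. Its log2 fold change was 0.68 ± 0.22 after rescaling (limma adjusted p = 0.0448). In deposited CPM Sap30 had 4.44, 6.19, 6.97, 4.57 and 6.76 deposited CPM in osimertinib libraries 1 to 5, against 2.81, 2.52, 5.13, 2.43 and 1.69 in placebo libraries 1 to 5, a change of 0.93 ± 0.30 (limma adjusted p = 0.0433). The rescaled call held in 3 of the 10 fits without 1 library, and the highest adjusted p, 0.116, came without osimertinib library 5. The deposited call held in 4 of 10 and reached 0.163 without osimertinib library 3.

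Sin3a had 16.98, 15.6, 14.4, 16.5 and 14.2 rescaled CPM in osimertinib libraries 1 to 5, against 20.01, 16.8, 15.8, 16.3 and 16.4 in placebo libraries 1 to 5. Placebo library 1 was the highest by a wide margin, and the other placebo libraries lay within the osimertinib range. The log2 fold change was -0.13 ± 0.10 after rescaling and 0.14 ± 0.31 in deposited CPM (limma adjusted p = 0.365 and 0.837). Sin3b ran from 32.1 to 41.9 in osimertinib libraries and 36.1 to 44.3 in placebo libraries in rescaled CPM, a change of -0.05 ± 0.11. Sap18 ran from 23.5 to 33.1 in osimertinib libraries and 16.1 to 25.9 in placebo libraries, a change of 0.37 ± 0.14 that did not pass (limma adjusted p = 0.0671). Its value is uncertain, because 13.7% of the 31-base words of its transcripts occur in those of Sap18b, which itself stood at 6.56 to 33.1 deposited CPM.

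CoREST joins a demethylase and Hdac1 or Hdac2 on 1 of the 3 Rcor scaffolds. Rcor1 had 10.9, 11.8, 10.4, 10.1 and 8.75 rescaled CPM in osimertinib libraries 1 to 5, against 10.9, 13.6, 11.96, 11.4 and 10.1 in placebo libraries 1 to 5. The groups overlapped, with a log2 fold change of -0.15 ± 0.11 after rescaling and 0.11 ± 0.31 in deposited CPM (limma adjusted p = 0.342 and 0.875). Rcor2, whose rescaled level ran from 2.28 to 4.59 in osimertinib libraries and 1.77 to 4.41 in placebo libraries, had a change of 0.21 ± 0.24, and Rcor3 one of 0.01 ± 0.13. Neither passed on either scale.

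NuRD combines nucleosome remodelling, by the helicases Chd3 and Chd4, with deacetylation, and its Mta, Mbd, Gatad2 and Rbbp subunits each come from small families. Rbbp7, a WD40 histone chaperone that also sits in Sin3 and Polycomb complexes, was higher and the helicase Chd4 lower after rescaling. Rbbp7 (chrX:162760402-162779092, plus strand) had 35.1, 46.6, 54.3, 38.3 and 57.3 rescaled CPM in osimertinib libraries 1 to 5, against 24.5, 26.4, 29.2, 30.2 and 26.1 in placebo libraries 1 to 5. The groups did not overlap, and osimertinib libraries 3 and 5 were the highest. The log2 fold change was 0.73 ± 0.14 (limma adjusted p = 0.0132), and the call was kept in all 10 fits without 1 library.

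In deposited CPM Rbbp7 had 34.4, 56.95, 62.7, 45.4 and 58.8 deposited CPM in osimertinib libraries 1 to 5, against 25.9, 35.4, 30.5, 27.97 and 11.9 in placebo libraries 1 to 5. Osimertinib library 1 and placebo library 2 overlapped there, and the change of 1.01 ± 0.32 passed (limma adjusted p = 0.04). This call held in 4 of 10 fits without 1 library and was lost without osimertinib library 2 (0.109), 3 (0.153), 4 (0.0611) or 5 (0.123) or placebo library 1 (0.0828) or 4 (0.0522). Of the 31-base words of Rbbp7 transcripts, 11.55% occur in those of Gm6382, which stood at 0 to 0.0619 deposited CPM. The exons of Rbbp7 overlap those of Txlng on the opposite strand. The libraries kept strand, but no source used here says whether the counting did.

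Rbbp4, the paralog of Rbbp7 in the same complexes, ran from 35.7 to 42.8 in osimertinib libraries and 32.6 to 45.3 in placebo libraries in rescaled CPM, a change of 0.09 ± 0.11 (limma adjusted p = 0.596). The log2 ratio of Rbbp7 to Rbbp4 was -0.02, 0.36, 0.42, -0.06 and 0.42 in osimertinib libraries 1 to 5, against -0.49, -0.39, -0.16, -0.32 and -0.80 in placebo libraries 1 to 5. It was higher in every osimertinib library, by 0.65 on average (exact permutation p = 0.00794, adjusted p = 0.0238). Per kilobase of exon, the rescaled level of Rbbp7 was 15.9 ± 3.33 in osimertinib libraries and 9.38 ± 0.814 in placebo libraries (SD, n = 5 each). That of Rbbp4 was 4.47 ± 0.344 in osimertinib libraries and 4.22 ± 0.577 in placebo libraries (SD, n = 5 each).

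The upstream sequences of this pair are shown because their ratio within a library differed between the groups and both hold core promoter motifs. Capitals mark matches, on either strand, to the GC box GGGCGG, the CCAAT box CCAAT and the E-box CACGTG. The Rbbp7 stretch is chrX:162760122-162760371 on the plus strand and the Rbbp4 stretch chr4:129335371-129335620 on the minus strand.
Rbbp7: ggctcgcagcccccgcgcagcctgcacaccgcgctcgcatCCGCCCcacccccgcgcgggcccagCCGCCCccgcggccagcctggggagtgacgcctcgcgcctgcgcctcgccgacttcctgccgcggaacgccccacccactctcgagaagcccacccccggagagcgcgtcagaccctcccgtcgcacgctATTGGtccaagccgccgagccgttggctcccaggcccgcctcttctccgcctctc
Rbbp4: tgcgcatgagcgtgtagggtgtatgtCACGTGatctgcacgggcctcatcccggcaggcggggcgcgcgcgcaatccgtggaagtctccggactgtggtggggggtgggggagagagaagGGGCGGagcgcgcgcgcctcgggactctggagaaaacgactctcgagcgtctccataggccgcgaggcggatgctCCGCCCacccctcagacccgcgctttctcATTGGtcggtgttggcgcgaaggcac
Each has 2 GC boxes and 1 CCAAT box, which reads as ATTGG on the printed strand, and Rbbp4 also has an E-box. The Rbbp7 stretch has 34 CpG sites and the Rbbp4 stretch 30, each in 250 bases.

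RefSeq windows were found for 37 of the 41 genes, 49 windows in all because some genes have several starts. Their median GC content was 64.3%, against 52.7% over all 32851 windows of the genome, and 44 of the 49 (89.8%) had an observed to expected CpG ratio above 0.6, against 35.8% of all windows. Upstream of the start, the GC box was found in 73.5% of the windows, in 29 of 37 genes, against 32.7% of all windows. The CCAAT box was in 38.8%, against 33.9%. A TATA box, searched as TATAAA, was in 6.12%, against 12.4%, in Jarid2, Mbd3 and Sin3b. The E-box was in 8.16%, against 6.02%. The ETS motif CCGGAAG was in 10.2%, against 6.91%. The core of the NRF1 motif, GCGCATGC, was in 4.08%, against 2.26%. Neither the cyclic AMP response element TGACGTCA nor the estrogen-related receptor motif TCAAGGTCA was found in a window of the 41 genes, against 1.55% and 0.387% of all windows. All motifs were searched on both strands, and a match is a run of letters, not a measured binding site. None of these shares was tested. The background holds the windows of all genes, not only of those that passed the filter on low values, as the 41 genes did.

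Chd4 (chr6:125095981-125130591, plus strand), the main remodelling ATPase of NuRD, had 100.1, 103, 87.6, 100.2 and 83.6 rescaled CPM in osimertinib libraries 1 to 5, against 127, 128, 107, 114 and 142 in placebo libraries 1 to 5. The groups did not overlap, with placebo library 5 the highest. The log2 fold change was -0.38 ± 0.11 (limma adjusted p = 0.0375). The call was lost without osimertinib library 3 (0.0986) or 5 (0.0951) or placebo library 1 (0.0825), 2 (0.0824) or 5 (0.0606). In deposited CPM Chd4 ran from 85.8 to 126 in osimertinib libraries and 64.5 to 173 in placebo libraries, a change of -0.09 ± 0.32 (limma adjusted p = 0.904). Its paralog Chd3 ran from 13.6 to 28.4 in osimertinib libraries and 20.6 to 33.4 in placebo libraries in rescaled CPM, a change of -0.28 ± 0.19 that did not pass.

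The Mta scaffolds, which bind the deacetylase, differed from each other. Mta2 ran from 26.5 to 30.4 in osimertinib libraries and 30.6 to 40.6 in placebo libraries in rescaled CPM without overlap, a change of -0.27 ± 0.10 (limma adjusted p = 0.0706), while Mta1 changed by 0.07 ± 0.09 and Mta3 by 0.18 ± 0.13, neither past the threshold. The log2 ratio of Mta1 to Mta2 was 0.48, 0.39, 0.50, 0.43 and 0.70 in osimertinib libraries 1 to 5, against -0.06, 0.05, 0.37, 0.18 and 0.22 in placebo libraries 1 to 5. That of Mta3 to Mta2 was -2.29, -2.32, -2.27, -1.94 and -1.93 in osimertinib libraries 1 to 5, against -2.66, -2.86, -2.78, -2.40 and -2.41 in placebo libraries 1 to 5. Both were higher in every osimertinib library, by 0.35 and 0.47 on average (exact permutation p = 0.00794, adjusted p = 0.0238 each), and they share Mta2, so they are not independent.

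The other NuRD genes did not pass on either scale. Mbd3 had a rescaled log2 fold change of 0.29 ± 0.14 and Mbd2, the methyl-CpG binding alternative to it, of -0.01 ± 0.11. Gatad2a changed by -0.28 ± 0.11 and Gatad2b, its paralog, by 0.15 ± 0.11. The ratio of Gatad2b to Gatad2a differed by 0.44 on the log2 scale (exact permutation p = 0.0317), which did not pass after adjustment over the 15 pairs (0.0794).

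**Figure D3:**
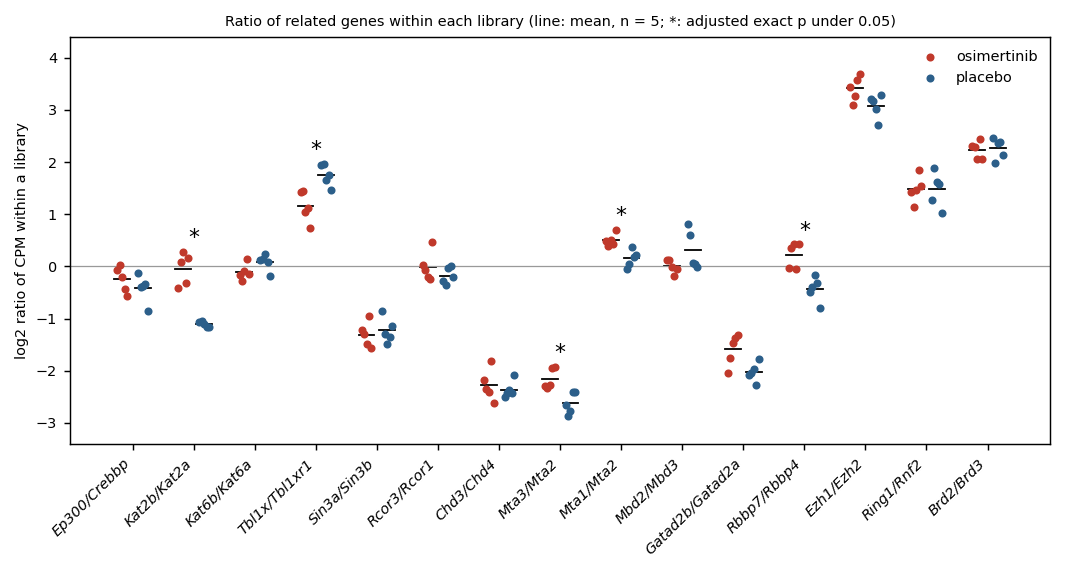
Log2 ratio of the CPM of 2 related genes within each library, for 15 pairs. Each point is 1 library, red for osimertinib and blue for placebo, the line is the group mean (n = 5), and the asterisk marks the 5 pairs with an adjusted exact permutation p under 0.05. For Kat2b/Kat2a the osimertinib points run from -0.42 to 0.27, above the placebo points at -1.17 to -1.05.

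Of the 15 pairs of related genes, 5 had a ratio that passed, and 6 had an unadjusted p under 0.05. Ratios of other gene pairs were not tested, so no background share stands beside this count. For the other 10 pairs the unadjusted p ran from 0.0317 to 0.984. Leaving out 1 library changed the count of ratios that passed. It was 0 without osimertinib library 4 or osimertinib library 5, where the lowest adjusted p was 0.0595, and from 4 to 6 without any other library. Without osimertinib library 4, Kat2b to Kat2a differed by 1.14 and Rbbp7 to Rbbp4 by 0.725. Both had an exact permutation p of 0.00794, the smallest that a fit without 1 library allows. The adjusted p then depends on how many pairs reach that limit, so a lost call does not by itself mean a smaller difference. Tbl1x to Tbl1xr1 was also lost without placebo library 1 (0.0952), 2 (0.0952) or 4 (0.0714). Over these 10 fits the mean difference of Kat2b to Kat2a was 0.99 to 1.16 and that of Rbbp7 to Rbbp4 0.56 to 0.73.

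Polycomb repressive complex 2 methylates histone H3 through Ezh1 or Ezh2, which need Suz12 and Eed, and Jarid2 is an accessory subunit that helps it to find chromatin. Ezh1 had 31.1, 27.2, 28.04, 34.5 and 33.6 rescaled CPM in osimertinib libraries 1 to 5, against 30.01, 31.7, 28.3, 31.002 and 38.4 in placebo libraries 1 to 5. The groups overlapped, with placebo library 5 the highest, and the log2 fold change was -0.04 ± 0.11 after rescaling and 0.24 ± 0.31 in deposited CPM (limma adjusted p = 0.8 and 0.719). Ezh2, which is best known from dividing cells, had 2.86, 3.19, 2.92, 2.91 and 2.59 rescaled CPM in osimertinib libraries 1 to 5, against 3.23, 3.52, 3.497, 4.72 and 3.92 in placebo libraries 1 to 5. Every osimertinib library was below every placebo library, though osimertinib library 2 and placebo library 1 were close. The change of -0.33 ± 0.13 did not pass (limma adjusted p = 0.0861), nor did that of -0.08 ± 0.30 in deposited CPM.

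Per kilobase of exon, the rescaled level of Ezh1 was 4.15 ± 0.437 in osimertinib libraries and 4.29 ± 0.518 in placebo libraries, and that of Ezh2 was 0.434 ± 0.0319 in osimertinib libraries and 0.566 ± 0.0873 in placebo libraries (SD, n = 5 each). Ezh1 was thus the more abundant methyltransferase transcript in both groups, and Ezh2 the lowest of the 41 genes on this scale. The log2 ratio of Ezh1 to Ezh2 averaged 3.41 ± 0.24 in osimertinib libraries and 3.08 ± 0.23 in placebo libraries (SD, n = 5 each; exact permutation p = 0.0635).

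Suz12 had 10.7, 13.7, 12.5, 11.6 and 9.19 rescaled CPM in osimertinib libraries 1 to 5, against 13.2, 16.7, 13.8, 12.1 and 9.91 in placebo libraries 1 to 5. Its log2 fold change was -0.17 ± 0.15 after rescaling and 0.09 ± 0.32 in deposited CPM (limma adjusted p = 0.406 and 0.902). Eed changed by -0.08 ± 0.14 and Jarid2 by -0.05 ± 0.12 after rescaling. Polycomb repressive complex 1 ubiquitinates histone H2A through Ring1 or Rnf2, with Bmi1 as a partner. Bmi1 had 25.6, 27.7, 25.8, 20.1 and 27.9 rescaled CPM in osimertinib libraries 1 to 5, against 26.3, 29.97, 23.7, 23.8 and 29.4 in placebo libraries 1 to 5. Its groups overlapped, and 27.5% of the 31-base words of its transcripts occur in the pseudogene Gm5946, which stood at 0 to 0.303 deposited CPM. The log2 fold change of Bmi1 was -0.07 ± 0.12 after rescaling and 0.21 ± 0.31 in deposited CPM (limma adjusted p = 0.697 and 0.757). Ring1 changed by -0.17 ± 0.15 and Rnf2 by -0.17 ± 0.10 after rescaling.

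All 8 Polycomb genes had rescaled log2 fold changes below 0, between -0.33 and -0.04, and none passed. Of all 12350 genes tested, 6038 were below 0 after rescaling. In deposited CPM 7 of the 8 were above 0, as were 9419 of the 12350 genes tested. The summed rescaled level of the 8 genes was 118 to 122 CPM in osimertinib libraries and 123 to 143 CPM in placebo libraries. In deposited CPM the sums were 118 to 146 CPM in osimertinib libraries and 57.9 to 192 CPM in placebo libraries, with the lowest in placebo library 5. Sums of the acetyltransferases, of each corepressor complex and of the bromodomain readers overlapped between the groups on both scales. After rescaling the acetyltransferases summed to 167 to 194 CPM in osimertinib libraries and 189 to 215 CPM in placebo libraries. All corepressor subunits together summed to 629 to 655 CPM and 633 to 695 CPM.

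Brd2 and Brd3 are BET proteins, which bind acetylated histones through paired bromodomains. Brd2 had 59.4, 63.7, 62.4, 71.7 and 56.6 rescaled CPM in osimertinib libraries 1 to 5, against 75.9, 61.9, 65.5, 72.2 and 68.5 in placebo libraries 1 to 5. Placebo library 1 was the highest and osimertinib library 5 the lowest, and the groups overlapped. Its log2 fold change was -0.13 ± 0.10 after rescaling and 0.15 ± 0.32 in deposited CPM (limma adjusted p = 0.362 and 0.834). Brd3 ran from 12.04 to 14.9 in osimertinib libraries and 12.8 to 15.6 in placebo libraries, a rescaled change of -0.09 ± 0.10 (limma adjusted p = 0.516).

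**Figure D4:**
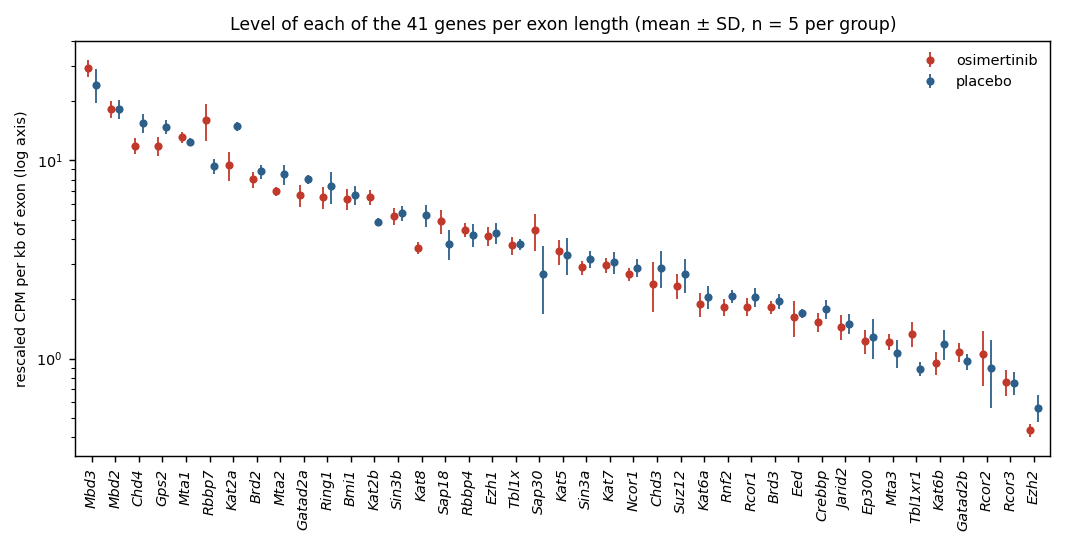
Rescaled CPM per kilobase of exon for each of the 41 genes, ordered by their mean over all libraries, on a log axis. Points are group means and bars the SD (n = 5), red for osimertinib and blue for placebo. Mbd3 is the highest, at 29.3 in osimertinib libraries and 24.1 in placebo libraries, and Ezh2 the lowest, at 0.434 and 0.566.

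Divided by exon length, which allows genes to be set side by side, NuRD genes held the first 3 places, Mbd3, Mbd2 and Chd4, with Gps2 and Mta1 next. Mbd3 had a rescaled level of 29.3 ± 2.98 in osimertinib libraries and 24.1 ± 4.76 in placebo libraries CPM per kilobase, and Mbd2 of 18.1 ± 1.83 in osimertinib libraries and 18.2 ± 1.997 in placebo libraries (SD, n = 5 each). Within placebo libraries Chd4, Kat2a and Gps2 lay within 1 SD of each other, at 15.4, 14.8 and 14.8 CPM per kilobase. Within osimertinib libraries Rbbp7 came next after Mbd3 and Mbd2, at 15.9 ± 3.33, which overlaps Mbd2 within their SD. Below Ep300, which had a rescaled level of 1.26 CPM per kilobase over all libraries, stood Mta3, Tbl1xr1, Kat6b, Gatad2b, Rcor2, Rcor3 and Ezh2.

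Subunits of the same complexes outside the 41 genes were described from 4 lists, with levels in rescaled CPM. Of 33 acetyltransferase complex genes, 3 were called lower after rescaling (9.09%) and none higher, beside 10.5% and 10.4% of all genes tested. An unadjusted p under 0.05 by limma was found in 10 of the 33, against 38.3% of all genes tested. Supt20, a core SAGA subunit, ran from 19.8 to 30.5 in osimertinib libraries and 31.5 to 42.1 in placebo libraries (log2 fold change -0.59 ± 0.14, adjusted p = 0.0181 by limma). Tada2a, an adaptor that binds Kat2a and Kat2b, ran from 4.16 to 5.96 in osimertinib libraries and 6.24 to 8.37 in placebo libraries (-0.50 ± 0.13, adjusted p = 0.0253). Brpf1, the scaffold of the Kat6a and Kat6b complexes, ran from 14.7 to 17.6 in osimertinib libraries and 18.3 to 25.4 in placebo libraries (-0.38 ± 0.11, adjusted p = 0.033). All 3 had groups that did not overlap.

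Of 26 class I deacetylase and corepressor genes tested, out of 27 listed, 4 were called lower after rescaling (15.4%) and none higher. Among all genes tested 10.5% were called lower and 10.4% higher. An unadjusted p under 0.05 by limma was found in 11 of the 26 (38.3% of all genes). Zmynd8, a chromatin reader that associates with NuRD, ran from 33.2 to 49.5 in osimertinib libraries and 51.3 to 74.4 in placebo libraries (-0.62 ± 0.14, adjusted p = 0.0172 by limma). Hmg20b, a CoREST subunit, ran from 41.2 to 53.9 in osimertinib libraries and 61.6 to 81.7 in placebo libraries (-0.56 ± 0.11, adjusted p = 0.0141).

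Of 29 further Polycomb genes tested, out of 31 listed, 1 was called higher and 2 lower after rescaling (10.3% in all). Among all genes tested 10.4% were called higher and 10.5% lower. An unadjusted p under 0.05 by limma was found in 10 of the 29 (38.3% of all genes). Pcgf5, which takes the place of Bmi1 in variant Polycomb complexes, ran from 6.08 to 12.4 in osimertinib libraries and 3.82 to 5.73 in placebo libraries without overlap (0.96 ± 0.20, adjusted p = 0.0141 by limma), and was called in deposited CPM as well, at 1.21 (limma adjusted p = 0.00981). Cbx2, a reader of methylated histone H3, ran from 2.81 to 5.66 in osimertinib libraries and 5.88 to 8.78 in placebo libraries (-0.72 ± 0.17, adjusted p = 0.0209).

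Of 21 other bromodomain genes tested, out of 23 listed, 5 were called lower after rescaling (23.8%) and none higher. Among all genes tested 10.5% were called lower and 10.4% higher. An unadjusted p under 0.05 by limma was found in 9 of the 21 (38.3% of all genes). Brd9, a subunit of a SWI/SNF complex, ran from 25.3 to 39.3 in osimertinib libraries and 45.2 to 56.9 in placebo libraries (-0.67 ± 0.14, adjusted p = 0.0142 by limma), Baz1b, of ISWI remodelling complexes, from 54.3 to 90.3 in osimertinib libraries and 97.2 to 126 in placebo libraries (-0.57 ± 0.16, adjusted p = 0.0292) and Baz2b from 12.4 to 18.7 in osimertinib libraries and 18.1 to 31.9 in placebo libraries (-0.57 ± 0.17, adjusted p = 0.0387). Brd8 and Trim24 were the other two. Across the 4 lists, which share no gene with the 41, 1 gene of 109 tested was called higher and 14 lower after rescaling (13.8% in all), against the 20.8% of all genes tested. In deposited CPM Pcgf5 was the only gene called by limma, and 3 of the 109 had an unadjusted p under 0.05, against 21.6% of all genes tested. The median log2 fold change of the 109 was -0.15 after rescaling and 0.11 in deposited CPM.

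Markers of cell types were summed beside these results. The 12 cardiomyocyte markers summed to 30584 to 52560 rescaled CPM in osimertinib libraries and to 15298 to 36638 in placebo libraries. Of the 12, 3 were called higher after rescaling and 7 in deposited CPM, beside 10.4% and 6.62% of all genes tested. The ventricular light chain Myl2 ran from 3543 to 7966 rescaled CPM in osimertinib libraries and from 1650 to 5351 in placebo libraries. The 10 endothelial markers summed to 2016 to 2561 in osimertinib libraries and to 2624 to 3509 in placebo libraries. After rescaling 4 of the 10 were called lower (Tie1, Egfl7, Fabp4 and Ly6c1), beside 10.5% of all genes tested. The rescaled log2 fold change was below 0 in 9 of the 10 and above 0 in Vwf, at 0.35, which did not pass. In deposited CPM none of the 10 was called, and 6 were above 0. The 12 leukocyte markers summed to 144 to 193 in osimertinib libraries and to 105 to 147 in placebo libraries. Of the 9 tested, Adgre1 and Lyz2 were called higher after rescaling, beside 10.4% of all genes tested. The rescaled fold change was above 0 in 7 of the 9 and below 0 in 2, and none was called in deposited CPM. The part of these shifts in the changes of the 41 genes was not tested.

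The 7 atrial markers summed to 693 to 4553 rescaled CPM in osimertinib libraries and to 496 to 1383 in placebo libraries. Bmp10 was at 0 in every library, and Myl7 ran from 0.288 to 1149 in osimertinib libraries and from 0 to 267 in placebo libraries. With the atrial level as a covariate, limma called 13 of the 41 genes after rescaling in place of 7, against a background of 39.1% of all genes tested under that covariate and adding Gps2, Mta2, Gatad2a, Chd3, Mbd3 and Sap18 to the 7 named above. Fibroblast markers, 10 in all, summed to 725 to 1525 in osimertinib libraries and to 534 to 1081 in placebo libraries. None of the 10 passed on either scale by limma. An unadjusted p under 0.05 was found in 3 in deposited CPM and in 1 after rescaling, beside 21.6% and 38.3% of all genes tested. The 10 proliferation markers summed to 9.67 to 18.8 in osimertinib libraries and to 12.8 to 21.4 in placebo libraries. None of the 6 tested passed on either scale by limma, with an unadjusted p under 0.05 in 1, after rescaling (38.3% of all genes). The remaining lists, mural, erythroid, adipocyte and neural, overlapped between groups in their sums.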

How the data were processed

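Bulk RNA of 10 left ventricular samples, 5 TAC osimertinib and 5 TAC placebo, was analysed, with groups and numbers taken from the sample titles. The deposited values are CPM, made by the authors so that each column sums to 1000000. STAR, RSEM, limma, voom and the GRCm38 build are named in the design text, whereas the submitters' processing notes name cutadapt 1.9, HISAT2 2.0.4, StringTie 1.3.4d, DESeq2 and hg38. Identifiers of the table are those of mouse genes, of which 98.8% were found in GENCODE M21 of GRCm38, the source of positions and exon lengths.

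Depth, 15863265 to 21309296 reads, was read from the spacing of low CPM. Between 90.7% and 93.4% of values were whole reads within 0.01 read, as estimated counts would be, so count tests were left out, and voom on the estimated reads was an alternative. Over 45 pairs of libraries the lowest chi-square was 22.6 per degree of freedom, so none agree within sampling noise.

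The filter left 12350 genes, which were tested, two-sided, with limma 3.58.1 in R 4.3.3 on log2(CPM + 0.5), with an intensity trend and p-values adjusted over all of them by Benjamini and Hochberg. Fold changes are on that scale, which understates changes of low genes, and each SE is moderated. The prior degrees of freedom were 72.9 in deposited CPM and 4.45 for rescaled values, so the shared variance dominates the SE in the first. Ratios of related genes within a library were tested with an exact two-sided permutation test and adjusted over 15 pairs. Both tests were checked on simulated data. Motifs and sequences are from RefSeq (GRCm38.p6), and shared words from GENCODE transcripts.

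The 41 genes, the lists and the pairs were chosen with earlier results of these data known. Values in every library are given for genes called on either scale and for Ep300, Crebbp, Kat2b, Ncor1, Sin3a, Rcor1, Chd4, Ezh1, Ezh2, Suz12, Bmi1 and Brd2, called or not. Of the lists of further subunits, up to 3 called genes in each direction are described with values. Some genes that this rule names are counted but not reported here.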

Additional observations from a re-analysis of the deposited data

Results flagged for a closer look

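In 6 of 194 sets of 5 values, 1 library stood far from the other 4 of its group. Chance alone flags about 1 set in 20, so 6 is no more than chance gives. After rescaling, Kat2b in osimertinib library 1 was 26.8 CPM, against 32.8 to 33.2 in the other osimertinib libraries, and Ring1 in osimertinib library 2 was 16.5 CPM, against 21.6 to 23.2. Sin3a in placebo library 1 was 20.01 rescaled CPM, against 15.8 to 16.8 in the other placebo libraries, and Chd3 in placebo library 5 was 33.4, against 20.6 to 24.01. In deposited CPM, Rbbp4 in osimertinib library 1 was 35.0, against 43.96 to 47.3 in the other osimertinib libraries, and Rcor2 in placebo library 2 was 5.93, against 1.55 to 2.57 in the other placebo libraries.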

How the results depend on the processing

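In deposited CPM, 2 of the 41 genes were called. The count was 1 with a pseudocount of 0.1, where 690 of all 12350 genes were called. It was 1 with a filter on a mean of at least 5 CPM (38 of the 41 tested), where 871 of all 9239 genes were called. In CPM taken without mitochondrial and haemoglobin genes it was 1, beside 625 of all 13169 genes. The gene was Rbbp7 each time. The count was 5 with array weights (adding Kat2a, Kat2b and Tbl1xr1, where 20.9% of all genes were called). With median-ratio rescaling or quantile normalization it was 7 (20.8% and 21.5% of all genes). With no filter on low values it was 0, when limma called no gene at all and 3269 had an unadjusted p under 0.05. Quantile normalization called Gps2 and not Sap30, and the other 6 of its 7 genes were those called after rescaling. Without 1 library the count was 0 to 3, where 307 to 1126 of all 12350 genes were called. After rescaling, 7 genes were called. The count was 13 with the atrial marker covariate, where 39.1% of all genes were called. With the filter on a mean of 5 CPM it was 7 of 38, 3 higher and 4 lower, with Gps2 called and Sap30 not tested (27% of all genes called). The same 7 genes were called under pseudocount 0.1 and 2, no intensity trend, array weights, voom on the estimated reads and the replicate block. In these fits 2266 to 3075 of all 12350 genes were called. Without 1 library the rescaled count was 4 to 9, with the lowest count without osimertinib library 3 or 5. Calls over all 12350 genes were 521 without osimertinib library 3 and 706 without osimertinib library 5. They were 794 to 2800 without any other library. Over all genes tested, calls in deposited CPM were 0 to 2579 and after rescaling 521 to 4830.

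Of the 15 ratios of related genes, 5 passed, 3 did with a pseudocount of 0.5 (those of Kat2b to Kat2a, Mta1 to Mta2 and Rbbp7 to Rbbp4), and 0 to 6 did without 1 library.

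Replicate numbers in the titles were checked for pairing. The correlations of deviations from the group means between samples of the same number were 0.43, 0.25, 0.46, -0.34 and -0.16. The placebo sample of the same number was the closest match for osimertinib samples 1 and 3 only. These mixed values cannot settle whether the samples were paired, and the labels do not say that they were. With the replicate block, limma called 3 genes in deposited CPM, adding Tbl1xr1, and 7 after rescaling. The ratios cannot pass in a paired form, since 5 pairs allow no p below 0.0625 (adjusted p 0.134), and 0 passed.

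Signs turned with the scaling for genes near 0. Of all 41 genes, 34 were above 0 in deposited CPM and 13 after rescaling. The settings are compared here only for the genes given with values in every library. Of those, 9 genes that were called on neither scale had log2 fold changes above 0 in deposited CPM. With median-ratio rescaling they were -0.069 for Bmi1, -0.13 for Brd2, -0.21 for Crebbp, -0.044 for Ep300, -0.044 for Ezh1, -0.11 for Ncor1, -0.15 for Rcor1, -0.13 for Sin3a and -0.17 for Suz12. With quantile normalization they were -0.098 for Bmi1, -0.17 for Brd2, -0.23 for Crebbp, -0.057 for Ep300, -0.064 for Ezh1, -0.12 for Ncor1, -0.18 for Rcor1, -0.15 for Sin3a and -0.20 for Suz12. Without mitochondrial and haemoglobin genes they were -0.047 for Bmi1, -0.11 for Brd2, -0.19 for Crebbp, -0.023 for Ep300, -0.021 for Ezh1, -0.083 for Ncor1, -0.13 for Rcor1, -0.11 for Sin3a and -0.16 for Suz12. With array weights they were -0.068 for Crebbp, -0.0036 for Rcor1 and -0.013 for Suz12. The median log2 fold change of all genes tested also moved down in these settings. It was 0.27 in deposited CPM, 0.01 with median-ratio rescaling and -0.02 with quantile normalization. Without mitochondrial and haemoglobin genes it was 0.03, and with array weights 0.17. Why the libraries differed in scale was not tested.

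Without 1 library, fold changes in deposited CPM ranged from -0.097 to 0.25 for Brd2, -0.29 to 0.062 for Chd4, -0.23 to 0.26 for Crebbp, -0.17 to 0.42 for Ep300, -0.28 to 0.018 for Ezh2, -0.063 to 0.35 for Ncor1, -0.16 to 0.31 for Rcor1, -0.11 to 0.28 for Sin3a and -0.23 to 0.32 for Suz12. After rescaling they ranged from -0.11 to 0.011 for Bmi1, -0.21 to 0.027 for Ep300 and -0.085 to 0.025 for Ezh1. The differences in log2 ratio ranged from -0.11 to 0.012 for Brd2 to Brd3, -0.026 to 0.17 for Chd3 to Chd4, -0.10 to 0.11 for Ring1 to Rnf2 and -0.17 to 0.0101 for Sin3a to Sin3b. None of these passed in any of the 10 fits. Depth limited Sap30, Rcor2 and Ezh2 most, which rested on 33 to 38 reads in their lowest library.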
